A study of Arabidopsis thaliana with 12 samples.

Results

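The auxin response factors (ARFs) are the DNA-binding transcription factors through which cells read the hormone auxin. The 10 ARF genes described here are ARF1, ARF2, ARF4, ARF5, ARF6, ARF7, ARF8, ARF10, ARF16 and ARF19. They were chosen by their gene identifiers from a list of ARF family genes, and all 10 had a row among the 20814 genes of the table and were among the 19338 genes tested. A further 13 ARF genes were looked up alongside them, of which 6 had a row. On TAIR10.1, in the RefSeq annotation, ARF1 (AT1G59750) lies at chr1:21979289-21984433, ARF5 (AT1G19850) at chr1:6886669-6891404, ARF6 (AT1G30330) at chr1:10685822-10690988, ARF19 (AT1G19220) at chr1:6627683-6633133, ARF10 (AT2G28350) at chr2:12113889-12116957 and ARF16 (AT4G30080) at chr4:14703065-14706354. ARF2 (AT5G62000) lies at chr5:24910191-24915395, ARF4 (AT5G60450) at chr5:24308255-24312784, ARF7 (AT5G20730) at chr5:7016445-7022179 and ARF8 (AT5G37020) at chr5:14629453-14634454.

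The material was roots of wild-type Arabidopsis thaliana seedlings grown for 4 days on half-strength medium and then moved for 3 days to fresh medium. The 4 groups, with 3 libraries each, were BiAux+IAA (5 µM BiAux together with 10 nM IAA), BiAux (5 µM), IAA (10 nM) and mock, which received neither compound. IAA, indole-3-acetic acid, is the main natural auxin, and BiAux is a synthetic molecule built from a pair of auxin units joined to an acetylated sugar. All groups share the wild-type genotype, and whole roots were used, so fewer cells of a type and less RNA per cell cannot be told apart. The groups were taken from the sample titles. In 7 of the 12 libraries (IAA 1 to 3, BiAux 1 to 3 and mock 3) another label field names a different treatment than the title does, so "IAA library" below means a library titled IAA, and every direction rests on the titles. The study's published fold changes for BiAux against mock lie closer to those of the libraries titled IAA than to those of the libraries titled BiAux. Which compound these libraries received is therefore in doubt. If the titles IAA and BiAux are exchanged, every IAA and BiAux result below trades places. That exchange would leave the conflicting label of mock 3 as it is. The published IAA and BiAux+IAA values also matched no comparison of these libraries well, so more than an exchange may be involved.

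In the absence of auxin, ARFs on DNA are held in check by Aux/IAA proteins, which recruit the TOPLESS corepressors. Auxin binds the TIR1/AFB receptors and the Aux/IAA proteins are degraded, which frees the ARFs. ARF5, ARF6, ARF7, ARF8 and ARF19 have a glutamine-rich middle region and activate transcription, whereas ARF1, ARF2, ARF4, ARF10 and ARF16 are classed as repressors. In roots, ARF7 and ARF19 are known for starting lateral roots, ARF5 for the embryonic root and vascular tissue, and ARF10 and ARF16 for the root cap. Several ARF mRNAs are also cut by small RNAs: miR160 acts on ARF10, ARF16 and ARF17, miR167 on ARF6 and ARF8, and a small RNA made from the TAS3 transcript on ARF2, ARF3 and ARF4.

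These small RNA sites divide the 10 genes into classes that the choice of members did not use, so their sequences are shown first. The mature miRNAs are read from the RefSeq annotation of the TAIR10.1 genome (DNA letters, 5′ to 3′), with the seed, bases 2 to 8, in capitals. The TAS3 line is the 21-base window of the TAS3 transcript that pairs best with ARF2 and ARF4.
miR160a-5p: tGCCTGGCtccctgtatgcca
miR167a-5p: tGAAGCTGccagcatgatcta
TAS3 window: ttttcttgaccttgtaagacc
The miR160a-5p sequence lies at chr2:16340282-16340302, miR167a-5p at chr3:8108090-8108110 and the TAS3 window at chr3:5862204-5862224, all on the plus strand. Below are the best matching sites in the members' longest RefSeq transcripts, 5′ to 3′ on the mRNA strand, with capitals for bases that form a Watson-Crick pair with the small RNA.
ARF10, miR160a-5p site: aGGaATACAGGGAGCCAGGCA
ARF16, miR160a-5p site: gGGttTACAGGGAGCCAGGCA
ARF6, miR167a-5p site: gAGATCAgGCTGGCAGCTTgt
ARF8, miR167a-5p site: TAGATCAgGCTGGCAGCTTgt
ARF4, TAS3 site: GGTCTTgCAAGGTCAAGAAAA
ARF2, TAS3 site: GGTCTTgCAAGGTCAAGAAtA

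All 6 sites lie wholly in coding sequence. The ARF10 site (chr2:12115741-12115761, plus strand) is in exon 2 of 4 and the ARF16 site (chr4:14704141-14704161, minus strand) in exon 3 of 4. The ARF6 site (chr1:10686478-10686498, minus strand) and the ARF8 site (chr5:14633841-14633861, plus strand) are both in exon 13 of 14. The ARF4 site (chr5:24309716-24309736, minus strand) is in exon 10 of 12 and the ARF2 site (chr5:24913263-24913283, plus strand) in exon 12 of 15. ARF10 and ARF16 have 2 and 3 bases unpaired with miR160a-5p, ARF8 and ARF6 have 3 and 4 unpaired with miR167a-5p, and ARF4 and ARF2 have 1 and 2 unpaired with the TAS3 window, G-U pairs counted as unpaired. The best window in any other member had at least 8 unpaired bases for miR160a-5p and at least 7 for the other small RNAs. The TAS3 window was chosen for its pairing with ARF2 and ARF4, so their low numbers there follow from that choice. ARF1, ARF5, ARF7 and ARF19, which had only the poorer windows, are taken here as a class with no such site.

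The values are normalized counts, read counts that the authors scaled so that every library has nearly the same total, here 32413978 to 32720463. ARF2, a repressor known from seed size, senescence and flower organ shedding, was the most abundant member. It had 7013, 8474 and 6807 normalized counts in BiAux+IAA libraries, 5102, 6869 and 6774 in BiAux libraries, 8706, 8311 and 7506 in IAA libraries, and 5007, 6471 and 7175 in mock libraries. ARF4, which acts with ARF3 in leaf polarity, had the lowest mean, with a range of 559 to 1167 over all libraries.

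Compared per kb of transcript, since long mRNAs give more reads, ARF2 averaged 1831 normalized counts per kb over the 12 libraries and ARF7 688.1, and the ranges of these neighbours did not overlap. Below ARF2 every neighbouring pair in the order overlapped. ARF1 followed at 684.7, ARF6 at 583.7, ARF16 at 498.0, ARF10 at 393.7, ARF8 at 391.4, ARF19 at 330.5, ARF5 at 301.0 and ARF4 at 267.4 normalized counts per kb. Within single libraries the order was firmer for some neighbours: ARF16 was above ARF10 and ARF8 above ARF19 in 12 of 12 libraries, while ARF7 was above ARF1 in 7 of 12 and ARF10 above ARF8 in 7 of 12. Among the other ARF genes ARF9 reached 597.8 normalized counts per kb, between ARF1 and ARF6, and ARF20 the lowest level, 28.63.

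**Figure D1:**
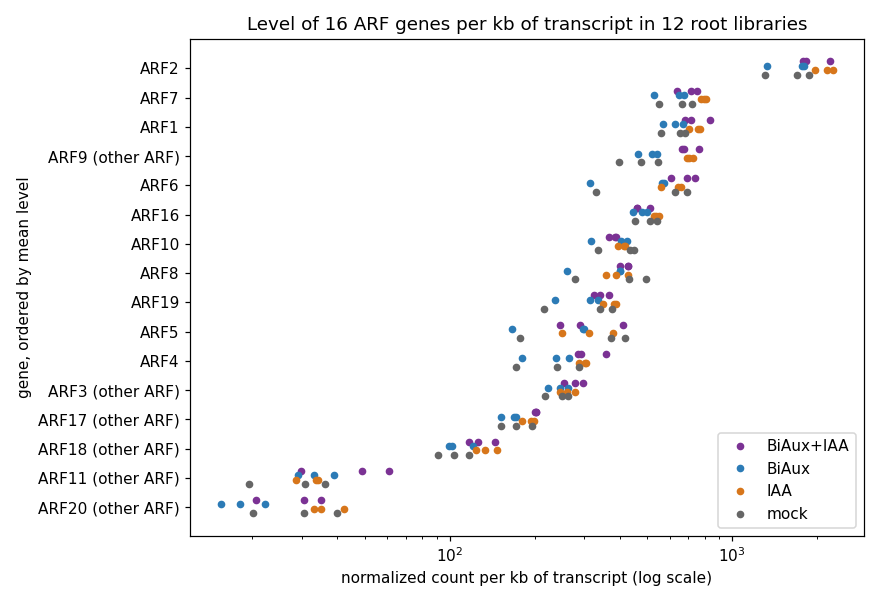
Normalized count per kb of the longest RefSeq transcript (log axis) in each of the 12 libraries, 1 row per gene, for the 10 members and the 6 other ARF genes with a row, ordered by mean level and coloured by group. ARF2 sits apart at the top (mean 1831 per kb), and ARF7 to ARF4 form an overlapping series between 688.1 and 267.4 per kb.

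The ratio of the paralogous activators ARF7 and ARF19 was much the same in each group. ARF7 normalized counts over those of ARF19 averaged 2.08 ± 0.0593 in BiAux+IAA, 2.16 ± 0.124 in BiAux, 2.18 ± 0.144 in IAA and 2.19 ± 0.361 in mock libraries (SD, n = 3 each). The highest value, 2.60, was that of mock 1, the first mock replicate. The miR160 class made up 10.07 ± 0.602% of the 10 members' summed normalized counts in BiAux+IAA, 12.04 ± 0.966% in BiAux, 10.54 ± 0.529% in IAA and 12.15 ± 1.16% in mock libraries. The class without a site took 33.79 ± 0.645% in BiAux+IAA, 34.42 ± 1.00% in BiAux, 34.45 ± 0.817% in IAA and 34.95 ± 0.627% in mock libraries. For the TAS3 class it was 37.38 ± 1.4%, 36.9 ± 0.612%, 38.61 ± 2.13% and 35.05 ± 2.05%, in the same order of groups. For the miR167 class it was 18.75 ± 0.972%, 16.64 ± 2.05%, 16.39 ± 1.2% and 17.85 ± 2.77%. As shares of the same sum, the classes do not move independently. Within the miR167 class, ARF6 over ARF8 was 1.77, 2.02 and 1.89 in BiAux+IAA and 1.98, 1.83 and 1.75 in IAA libraries, against 1.40, 1.66 and 1.66 in BiAux and 1.38, 1.63 and 1.69 in mock libraries. The 6 libraries with IAA thus had a higher ratio than the 6 without, a pattern noticed in the values and not tested.

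BiAux 1 and mock 1 stood apart from the other libraries in these genes. Every one of the 10 members had its lowest BiAux value in BiAux 1 and its lowest mock value in mock 1, a pattern found in 48.2% of all tested genes and in 79.7% of those with a transcript at least as long as the shortest member (2514 bases). The summed normalized count of the 10 members was 15299 in BiAux 1 and 15378 in mock 1, against 20733 to 25047 in the other 10 libraries. BiAux 1 lay a median of 0.44 below BiAux 2 and 3 on the log2 scale (median difference -0.436 over the 10 members, -0.119 over all tested genes and -0.341 over the long ones). For mock 1 against mock 2 and 3 the median differences were -0.524 over the members, -0.123 over all tested genes and -0.406 over the long ones. The differences fell with transcript length across genes (Spearman rho -0.346 for BiAux 1 and -0.397 for mock 1 over 19268 genes, which are not independent), while in the other 10 libraries rho of the deviation from the group mean ran from -0.315 in BiAux+IAA 1 to 0.429 in mock 2. The part of these values in the comparisons below was not tested, and the main results are given with and without the 2 libraries.

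**Figure D2:**
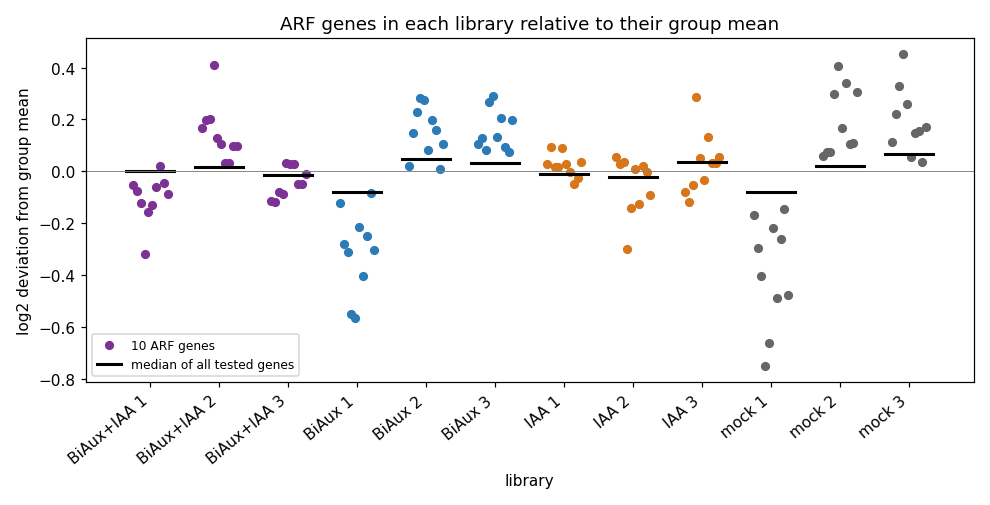
Log2 level of each of the 10 ARF genes in each library minus its group mean (points, in the order ARF1 to ARF19 from left to right within a library), with the median over all 19338 tested genes as a black bar. The points of BiAux 1 and mock 1 lie below 0, with medians of -0.291 and -0.349, while the medians of the members in the other libraries run from -0.082 to 0.163.

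ARF5, known as MONOPTEROS, spread most. It had 889, 1484 and 1046 normalized counts in BiAux+IAA, 599, 1079 and 1068 in BiAux, 1128, 902 and 1365 in IAA, and 643, 1350 and 1506 in mock libraries, so that the groups overlapped throughout. ARF16 spread least, its highest library being 1.23 times its lowest, against 2.51 times for ARF5. The members varied together across libraries. Over the 45 pairs, Pearson's r of the log2 levels ran from 0.489 to 0.948 with a median of 0.798 over 12 libraries, and from -0.529 to 0.879 with a median of 0.312 over the 10 libraries without BiAux 1 and mock 1. These correlations are descriptions, and the points share libraries and scaling.

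**Figure D3:**
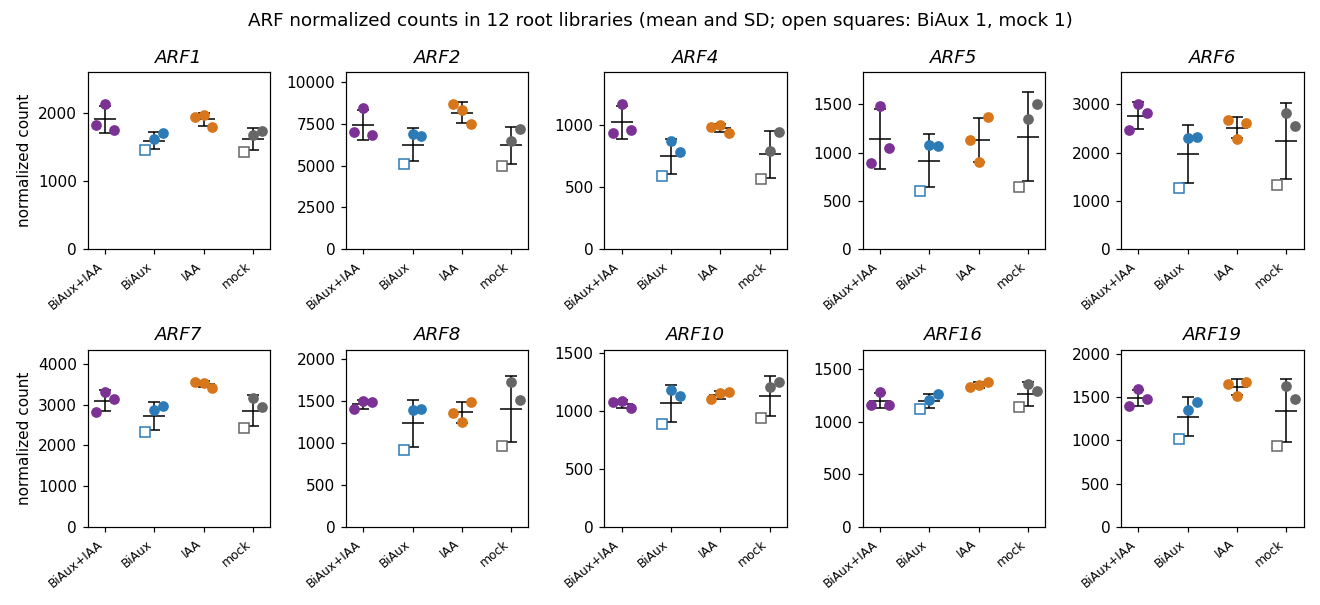
Normalized counts of the 10 ARF genes in the 12 libraries, 1 panel per gene with its own axis starting at 0. Points are libraries, horizontal bars group means with SD (n = 3), and open squares BiAux 1 and mock 1, which are the lowest of their group for every gene (for ARF6, 1275 in BiAux 1 and 1335 in mock 1).

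The first question was whether IAA changes ARF mRNA levels, asked over the 6 libraries with IAA against the 6 without it, BiAux kept as a term of the model. All 10 members had fitted values above 0, as did 10321 of all 19338 tested genes. The members' median log2 fold change was 0.25, against 0.01 over all tested genes. The repressors ARF4, ARF2 and ARF1 and the lateral root activators ARF7 and ARF19 were higher with IAA at an unadjusted p under 0.05, 5 of 10 members, where 10.1% of all tested genes were. None of the 10 also changed by more than 0.5 on the log2 scale, as 2.12% of tested genes did, and none had an adjusted p under 0.05 (limma, Benjamini-Hochberg over 19338 genes), as 3.80% did. This last count depends on the scaling: with median-of-ratios factors ARF4 (adjusted p = 0.0379) and ARF1 (adjusted p = 0.0412) passed the adjusted threshold by limma.

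ARF4 showed the highest value in this comparison. It had 929, 1167 and 956 normalized counts in BiAux+IAA and 982, 994 and 935 in IAA libraries, against 590, 866 and 780 in BiAux and 559, 785 and 939 in mock libraries. The log2 fold change was 0.41 ± 0.12 (SE; limma adjusted p = 0.0743), and of the libraries without IAA only mock 3 reached into the range of those with it. For ARF2, whose counts are given above, the log2 fold change was 0.33 ± 0.10 (limma adjusted p = 0.0914).

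ARF1, which overlaps in function with ARF2, had 1826, 2130 and 1746 normalized counts in BiAux+IAA and 1934, 1972 and 1796 in IAA libraries, against 1456, 1611 and 1708 in BiAux and 1427, 1675 and 1737 in mock libraries. Its 6 libraries with IAA all lay above its 6 without, by a log2 fold change of 0.24 ± 0.07 (limma adjusted p = 0.0655). ARF7, an activator known for shoot bending and lateral roots, had 2822, 3326 and 3155 normalized counts in BiAux+IAA and 3572, 3525 and 3424 in IAA libraries, against 2340, 2875 and 2979 in BiAux and 2434, 3179 and 2942 in mock libraries. Here the IAA libraries were above all others and BiAux+IAA overlapped with mock. The log2 fold change with IAA was 0.25 ± 0.08 (limma adjusted p = 0.10).

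ARF19 had 1399, 1591 and 1478 normalized counts in BiAux+IAA and 1654, 1515 and 1678 in IAA libraries, against 1017, 1355 and 1445 in BiAux and 935, 1621 and 1473 in mock libraries. Its log2 fold change was 0.27 ± 0.12 (limma adjusted p = 0.227). The BiAux library at 1445 and the mock libraries at 1621 and 1473 lay within the range of the libraries with IAA, 1399 to 1678. In contrast, the members of the miR160 class had log2 fold changes near 0, 0.01 ± 0.08 for ARF10 (95% interval -0.17 to 0.19) and 0.05 ± 0.06 for ARF16 (95% interval -0.07 to 0.18). ARF17, the miR160 target outside the members, stood at 0.22 ± 0.07. ARF10 had 1079, 1088 and 1027 normalized counts in BiAux+IAA and 1103, 1157 and 1167 in IAA libraries, against 888, 1184 and 1131 in BiAux and 938, 1214 and 1257 in mock libraries, so the groups with and without IAA overlapped. The miR167 class and ARF5 had wide intervals, with 0.39 ± 0.18 for ARF6, 0.13 ± 0.14 for ARF8 and 0.18 ± 0.22 for ARF5. For ARF6 the libraries without BiAux had 2675, 2278 and 2606 normalized counts with IAA, against 1335, 2818 and 2549 in mock libraries, which overlapped. Whether the classes differ from one another was not tested.

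Without BiAux 1 and mock 1, a comparison added after their values were seen, 4 members were higher with IAA at p under 0.05 where 8.56% of tested genes were. These were ARF4 at 0.23 ± 0.08, ARF2 at 0.19 ± 0.07, ARF1 at 0.17 ± 0.06 and ARF7 at 0.14 ± 0.055 (log2 fold change ± SE; limma adjusted p from 0.0828 to 0.15). ARF19 then stood at 0.07 ± 0.055, ARF6 at 0.08 ± 0.08, ARF8 at -0.09 ± 0.07 and ARF5 at -0.15 ± 0.14, and ARF10 was lower with IAA at -0.12 ± 0.05 at p under 0.05 (limma adjusted p = 0.153), where 14.8% of tested genes were lower.

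**Figure D4:**
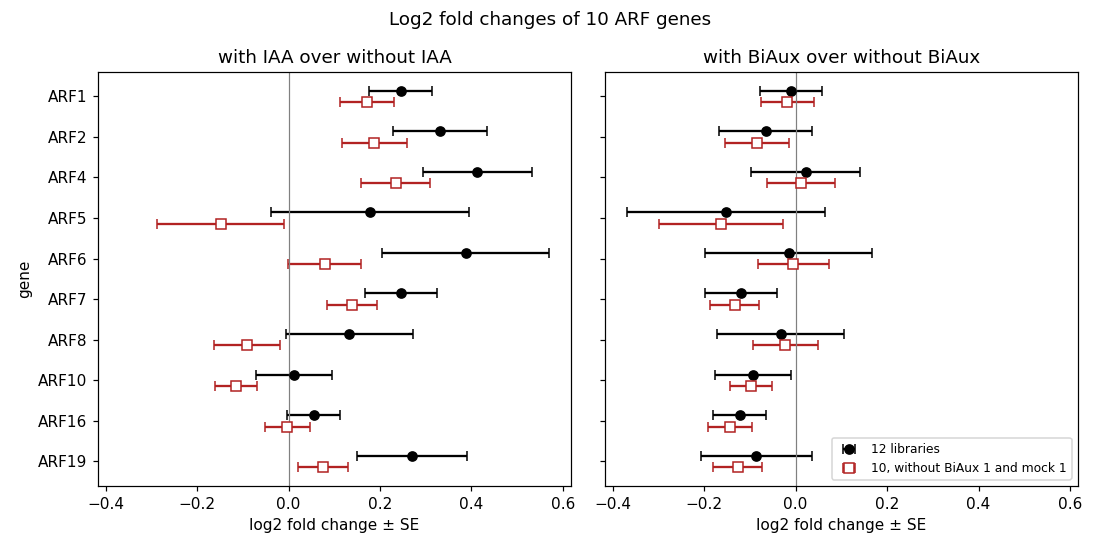
Log2 fold change with its SE for each ARF gene, for libraries with IAA over those without (left) and with BiAux over those without (right), from 12 libraries (filled circles) and from 10, without BiAux 1 and mock 1 (open squares). With IAA, ARF4, ARF2, ARF1 and ARF7 lie above 0 in both, from 0.41 to 0.24 with all libraries and from 0.23 to 0.14 without the 2, whereas ARF5, ARF8 and ARF10 and, at -0.0027, ARF16 cross to below 0.

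Taken by group, IAA against mock gave 3 members higher at p under 0.05 where 7.90% of tested genes were: ARF2 (0.41 ± 0.14), ARF7 (0.31 ± 0.11) and ARF1 (0.24 ± 0.10, log2 fold change ± SE). In all 3 the IAA and mock libraries did not overlap. No member passed the limit of 0.5 as well (3.29% of tested genes did) or an adjusted p of 0.05 (0.284% did; limma, lowest member adjusted p 0.203). Without mock 1, ARF2 stood at 0.26 ± 0.09 and ARF7 at 0.20 ± 0.07, both still higher at p under 0.05 (limma adjusted p = 0.0811 and 0.0956), where 11.9% of tested genes were higher. ARF1 then stood at 0.15 ± 0.07 and no longer passed p under 0.05. In the same libraries ARF5 at -0.35 ± 0.14 and ARF8 at -0.24 ± 0.09 were lower with IAA at p under 0.05 (limma adjusted p = 0.124 and 0.112), where 17.0% of tested genes were, whereas with all 3 mock libraries ARF5 stood at 0.03 ± 0.30 and ARF8 at -0.0007 ± 0.20.

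ARF7 overlaps a neighbour on the opposite strand, whose part in the ARF7 count was not tested. The ARF7 gene (RefSeq symbol NPH4, chr5:7016445-7022179, minus strand, 13 exons) overlaps AT5G20720, the chloroplast chaperonin gene CPN20, by 254 bases, and whether reads were counted by strand is not stated. AT5G20720 had 2726, 2836 and 3063 normalized counts in IAA libraries against 3760, 3528 and 3734 in mock libraries, a log2 fold change of -0.35 ± 0.08. Overlaps of the other members were at most 23 bases.

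BiAux+IAA against mock gave 1 member at p under 0.05, ARF4 at 0.43 ± 0.18 (log2 fold change ± SE; limma adjusted p = 0.352), where 5.02% of tested genes were higher. ARF6, which acts with ARF8 in flower maturation and adventitious rooting, had the next highest value, 0.37 ± 0.25. No member passed both limits, as 5.60% of tested genes did, and none an adjusted p of 0.05 by limma, as 1.48% did. Without mock 1, ARF4 stood at 0.23 ± 0.12 and ARF6 at 0.04 ± 0.10, and ARF10 was lower at -0.21 ± 0.07 at p under 0.05, where 15.3% of tested genes were. None of these had an adjusted p under 0.05.

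BiAux+IAA against BiAux asks what IAA adds in the presence of BiAux. All 10 members had values above 0, as did 10785 of all 19338 tested genes. The members' median log2 fold change was 0.25, against 0.02 over all tested genes. ARF10 and ARF16 stood near 0, at 0.0064 ± 0.11 and 0.007 ± 0.08, and their sign rested on BiAux 1. In ARF10, BiAux 2 and 3 had 1184 and 1131 normalized counts, against 1079, 1088 and 1027 in BiAux+IAA libraries. In ARF16 they had 1202 and 1258, against 1160, 1283 and 1159. ARF6 was, with all libraries kept, the only member in any of the 8 comparisons to pass both limits. It had 2470, 3012 and 2814 normalized counts in BiAux+IAA against 1275, 2302 and 2326 in BiAux libraries, without overlap, a log2 fold change of 0.53 ± 0.21 (limma adjusted p = 0.441), where 2.74% of tested genes passed both limits. Its value ran from 0.25 to 0.68 when single libraries were left out, the lowest being without BiAux 1. ARF4 at 0.45 ± 0.15 and ARF1 at 0.25 ± 0.10 were the other members higher at p under 0.05, 3 in all where 5.05% of tested genes were, and 0 had an adjusted p under 0.05, as 0.160% of tested genes did.

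Next, the effect of BiAux on ARF mRNAs was asked. Over the 6 libraries with BiAux against the 6 without, with IAA as a term, 0 of 10 members had a p under 0.05 (limma; 10.7% of tested genes had), 0 passed both limits (1.85%) and 0 had an adjusted p under 0.05 (1.42%). The median log2 fold change of the members was -0.08, against -0.03 over all tested genes. ARF16, a root cap regulator, came nearest, at -0.12 ± 0.06 (limma adjusted p = 0.487). It had 1160, 1283 and 1159 normalized counts in BiAux+IAA and 1124, 1202 and 1258 in BiAux libraries, against 1325, 1349 and 1381 in IAA and 1136, 1358 and 1289 in mock libraries.

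The intervals of the BiAux effect took in 0 for every member and differed in width. The 95% interval was -0.16 to 0.14 for ARF1, -0.29 to 0.15 for ARF2, -0.23 to 0.28 for ARF4, -0.29 to 0.05 for ARF7 and -0.35 to 0.17 for ARF19 on the log2 scale. It was -0.27 to 0.08 for ARF10, -0.25 to 0.0033 for ARF16, -0.41 to 0.38 for ARF6 and -0.33 to 0.27 for ARF8. ARF5 had the widest, -0.62 to 0.31. Without BiAux 1 and mock 1, ARF16 (-0.14 ± 0.05), ARF7 (-0.13 ± 0.05) and ARF19 (-0.13 ± 0.05) were lower with BiAux at p under 0.05, 3 members where 11.4% of tested genes were lower, with limma adjusted p from 0.153 to 0.258.

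BiAux against mock, without IAA in either group, gave 0 members at p under 0.05 by limma (4.25% of tested genes), 0 past both limits (1.59%) and 0 with an adjusted p under 0.05 (0.0310%). The same-numbered BiAux and mock libraries deviated together, so the replicate number was also used as a block. With it ARF5 (-0.30 ± 0.08), ARF6 (-0.16 ± 0.06) and ARF8 (-0.17 ± 0.07) were lower in BiAux roots at p under 0.05, 3 members where 11.1% of tested genes were lower. Their limma adjusted p were 0.077, 0.215 and 0.23. Without BiAux 1 and mock 1 the same 3 genes were lower (12.1% of tested genes were), ARF5 at -0.40 ± 0.07 with an adjusted p of 0.0258, where 2.60% of tested genes had an adjusted p under 0.05. Without mock 1 alone, ARF5 stood at -0.68 ± 0.25, past both limits (limma adjusted p = 0.42), as 3.98% of tested genes were. That fit kept BiAux 1, the lowest ARF5 library at 599 normalized counts. With BiAux 1 left out instead, BiAux 2 and 3, at 1079 and 1068, lay within the mock range of 643 to 1506.

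BiAux+IAA against IAA, the effect of BiAux on top of IAA, gave 2 members lower at p under 0.05 where 12.9% of tested genes were: ARF7 at -0.18 ± 0.07 and ARF16 at -0.17 ± 0.07 (limma adjusted p = 0.191 and 0.19). In both the BiAux+IAA libraries lay wholly below the IAA libraries. No member passed both limits (3.40% of tested genes did) or the adjusted threshold (3.83% did). With 1 library left out at a time the count of lower members ran from 0 to 4, and ARF7 stood at -0.11 without BiAux+IAA 1. Shares of all tested genes in those fits are not given, so this count describes the members only.

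BiAux directly against IAA gave values below 0 for all 10 members, where 8258 of all 19338 tested genes lay above 0. The members' median log2 fold change was -0.34, against -0.04 over all tested genes. For ARF8 and ARF10 the sign rested on BiAux 1. In ARF8, BiAux 2 and 3 had 1390 and 1398 normalized counts, against 1353, 1244 and 1488 in IAA libraries. In ARF10 they had 1184 and 1131, against 1103, 1157 and 1167. At p under 0.05, 6 members were lower in BiAux than in IAA libraries, where 11.0% of tested genes were: ARF2 (-0.40 ± 0.12), ARF4 (-0.39 ± 0.13), ARF7 (-0.37 ± 0.10), ARF19 (-0.35 ± 0.13), ARF1 (-0.26 ± 0.08) and ARF16 (-0.18 ± 0.07). None passed both limits (3.41% of tested genes did) and none had a limma adjusted p under 0.05 (1.29% did). With 1 library left out at a time the count ran from 2 to 7 members, the lowest being ARF2 and ARF7 alone without IAA 1 or without IAA 2. Without BiAux 1 all 6 stayed under p of 0.05 at smaller values, among them ARF2 at -0.26, ARF4 at -0.23 and ARF19 at -0.20. Shares of all tested genes in the fits with a library left out are not given, so those counts describe the members only. This comparison and the 2 against mock share libraries and are not independent of one another.

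The interaction of BiAux and IAA, which asks whether the effect of BiAux differs with and without IAA, had 0 members with p under 0.05 by limma (7.94% of tested genes had) and 0 with an adjusted p under 0.05 (0% did). The widest intervals reached from -0.68 to 1.27 for ARF5 and from -0.52 to 1.11 for ARF6 on the log2 scale. Without BiAux 1 and mock 1, the interaction was 0.34 ± 0.13 for ARF6 and 0.31 ± 0.12 for ARF8, both at p under 0.05, 2 members where 9.06% of tested genes had a positive one, with limma adjusted p of 0.205 and 0.208. ARF8 had 1397, 1492 and 1487 normalized counts in BiAux+IAA, 908, 1390 and 1398 in BiAux, 1353, 1244 and 1488 in IAA, and 964, 1726 and 1506 in mock libraries.

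Among the 6 other ARF genes tested, named here after their values were seen, ARF9 passed the adjusted threshold. It had 1998, 2289 and 2019 normalized counts in BiAux+IAA and 2113, 2182 and 2078 in IAA libraries, against 1390, 1563 and 1629 in BiAux and 1190, 1421 and 1636 in mock libraries. Its libraries with IAA lay wholly above those without, by 0.52 ± 0.08 (limma adjusted p = 0.00245), and by 0.43 ± 0.06 without BiAux 1 and mock 1 (adjusted p = 0.00113). It was also lower in BiAux than in IAA libraries, by -0.47 ± 0.08 (limma adjusted p = 0.033). ARF17, the other miR160 target, stood at 0.22 ± 0.07 (adjusted p = 0.0985) and ARF3, the other TAS3 target, at 0.14 ± 0.07 (adjusted p = 0.27). ARF20, at 30 to 82 normalized counts, was lower in BiAux than in IAA libraries by both limits (-0.75 ± 0.15, limma adjusted p = 0.0664).

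The 100 bases before the start of ARF7 and ARF19 are shown because these paralogs hold an ARF-binding motif there. TGTCGG and TGTCTC, short DNA words bound by ARFs, were searched on both strands from 250 bases before to 50 after each gene start. TGTCGG was found in 2 of 10 members against 5.55% of 20693 promoters, and TGTCTC in 0 of 10 against 13.7%. Capitals mark the motif, which for ARF19 is on the reverse strand. The first line is chr5:7022180-7022279 and the second chr1:6633134-6633233, both minus strand of TAIR10.1, and the motifs start at positions -42 and -66 from the gene start.
ARF7 promoter: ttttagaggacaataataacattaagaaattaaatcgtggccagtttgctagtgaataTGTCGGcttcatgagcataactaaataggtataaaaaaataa
ARF19 promoter: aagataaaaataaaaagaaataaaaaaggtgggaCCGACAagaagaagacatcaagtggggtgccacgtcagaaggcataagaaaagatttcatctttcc
A match is a description of the letters only.

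The genes of the proteins that act with the ARFs were counted in the same way. Of the 6 auxin receptor genes and of the 5 TOPLESS corepressor genes, 0 passed both limits in any of the 8 comparisons between treatments. Among the 24 Aux/IAA repressor genes tested, 2 were lower in BiAux+IAA than in IAA libraries, IAA2 at -0.51 ± 0.07 (limma adjusted p = 0.00492) and IAA1 at -0.65 ± 0.11, with 114, 120 and 113 normalized counts in BiAux+IAA against 176, 191 and 204 in IAA libraries (adjusted p = 0.0117). Both limits were passed in that comparison by 3.40% of tested genes. IAA1 was also lower in BiAux against mock (-0.51 ± 0.12), in BiAux+IAA against mock (-0.90 ± 0.13) and over all libraries with BiAux against those without (-0.58 ± 0.07, limma adjusted p = 0.00153). There 1.59%, 5.60% and 1.85% of tested genes passed both limits, in that order, and 3.41% did in BiAux against IAA. IAA31 was higher in BiAux than in IAA libraries (0.50 ± 0.16, limma adjusted p = 0.182), and no other Aux/IAA gene passed both limits in any of the 8 comparisons. Of 10 small RNA pathway genes 0 passed both limits in any comparison.

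Of 10 genes downstream of ARF7 and ARF19 in lateral root initiation, 3 were lower in BiAux+IAA than in IAA libraries and 0 higher, where 3.40% of all tested genes passed both limits in either direction. LBD29, a direct target of ARF7 and ARF19, had 127, 122 and 126 normalized counts in BiAux+IAA against 197, 201 and 193 in IAA libraries, a log2 fold change of -0.59 ± 0.10 (limma adjusted p = 0.0125). PUCHI, a regulator of lateral root primordia, stood at -0.65 ± 0.14 (adjusted p = 0.0329) and the founder cell regulator PLT7 at -0.59 ± 0.20 (adjusted p = 0.126). Of the same 10 genes 3 (LBD17, PLT5 and PUCHI) were lower in BiAux+IAA than in mock, 2 (PLT7 and LBD29) in BiAux than in IAA, 1 (PLT7) in BiAux than in mock and 1 (PLT7) with BiAux over all libraries, 0 were lower in the other 3 comparisons and 0 were higher in any. Among all tested genes 5.60%, 3.41%, 1.59% and 1.85% passed both limits in the comparisons with such genes, in that order. Of 5 tested targets of ARF5, 0 passed both limits in any of the 8 comparisons.

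Of 7 root cap and stem cell regulators tied to ARF10 and ARF16, 4 were lower in BiAux+IAA than in mock libraries and 0 higher, where 5.60% of all tested genes passed both limits in either direction. BRN2, a root cap NAC factor, had 161, 112 and 146 normalized counts in BiAux+IAA against 394, 276 and 238 in mock libraries, without overlap, a log2 fold change of -1.02 ± 0.20 (limma adjusted p = 0.0505). WOX5, the quiescent centre regulator, stood at -0.71 ± 0.15 (adjusted p = 0.0617). In the other comparisons 2 (BRN1 and BRN2) were lower in BiAux+IAA than in BiAux and with IAA over all libraries, 1 (BRN2) in IAA than in mock, 1 (WOX5) in BiAux than in mock, 0 in the other 3, and 0 were higher. Both limits were passed there by 2.74%, 2.12%, 3.29% and 1.59% of tested genes, in that order. BRN1 and BRN2 were highest of their groups in BiAux 1 and mock 1. BRN1 had 387, 190 and 224 normalized counts in BiAux and 376, 218 and 192 in mock libraries. These calls are given only with BiAux 1 and mock 1 kept. In BiAux+IAA against mock ARF10 and ARF16 stood at -0.08 ± 0.12 and -0.07 ± 0.10.

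The genes most like each member were named by Pearson's r of log2 level over 12 libraries, among the 15226 genes averaging 5 or more CPM (counts relative to the library total). For ARF7 they were AT2G45810 (0.987), MAPKKK6 (0.985) and AT1G79570 (0.978), and for ARF19 AT3G20720 (0.994), AT2G26780 (0.992) and MEE44 (0.991). ARF1 had AT5G23100 (0.976), ARF2 AT4G14740 (0.988), ARF4 AT5G02480 (0.981), ARF5 ACC2 (0.977), ARF6 AT1G63810 (0.989), ARF8 AT4G36180 (0.990), ARF10 AT1G50660 (0.973) and ARF16 VPS15 (0.940) as the most alike gene. An r over 0.9 was shared by 1320 genes with ARF19 and by 1218 with ARF6, against 23 with ARF16, and without BiAux 1 and mock 1 by 33, 6 and 32. All points share libraries and scaling.

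The root label was checked with markers. The summed level of 10 root markers was 13000 to 16900 CPM in BiAux+IAA, 11800 to 13300 in BiAux, 11600 to 14000 in IAA and 11300 to 12900 in mock libraries, with 0 of them at 0. Most of this sum was PYK10, a root beta-glucosidase, at 11900 to 16000 CPM in BiAux+IAA, 10800 to 11900 in BiAux, 10700 to 13000 in IAA and 10300 to 11600 in mock libraries. The other 9 root markers summed to 899 to 1100 CPM in BiAux+IAA, 1020 to 1360 in BiAux, 946 to 1050 in IAA and 825 to 1280 in mock libraries. The 8 shoot markers in the table summed to 78.8 to 103 in BiAux+IAA, 80.7 to 93.1 in BiAux, 73.7 to 104 in IAA and 109 to 131 CPM in mock libraries. The shoot sum was thus higher in mock than in every other group, and its part in the ARF values was not tested.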

How the data were processed

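Poly(A) RNA from 12 root libraries, 3 per group, was sequenced as paired reads. The authors trimmed reads, aligned them to TAIR10 with Araport11 genes (the study's methods name STAR, the submitters' processing notes HISAT2), counted them per gene with HTSeq and normalized with edgeR. The deposited values are log2 of a whole normalized count plus 1. Read counts cannot be recovered from them, so sequencing depth is unknown and no count model was used. Genes below 3 normalized counts in IAA 3 are missing from the table, which makes its low end incomplete but leaves all 10 members. Library totals ran from 32413978 to 32720463.

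The values were turned back to normalized counts, 0.5 CPM (here 16.3 normalized counts) was added, and log2 values of the 19338 genes averaging 0.5 or more on that scale were fitted with limma 3.58.1 in R 4.3.3. Fold changes on this scale understate those of low genes. Pairs of groups were fitted alone. The main effects came from an additive fit of the 12 libraries, without an interaction term. The interaction came from a separate fit of the same libraries. The limits of 0.05 and 0.5 (log2 fold change) are those the study gives, whose methods also name Benjamini-Hochberg correction. Here a call took p before adjustment, and Benjamini-Hochberg adjusted values over all tested genes are given beside it. The scripts were tested on simulated data. Nothing in the labels says whether replicates came from separate plantings, so p-values measure the spread between these libraries, which may be technical.

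Same-numbered BiAux and mock libraries deviated together (r = 0.779, 0.407 and 0.58 over tested genes), so blocked values are given for that pair. Alternatives were the pseudocount, the filter, median-of-ratios scaling, 1 fit of all groups, the replicate block, each library left out and the unchanged deposited log2 values. All 10 members are named, other ARF genes and lists by counts with at most 4 examples each, and for each member up to 3 genes most like it. The members and gene lists were chosen with earlier results of these data known. Sequences and gene models come from RefSeq (TAIR10.1).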

Additional observations from a re-analysis of the deposited data

How the results depend on the processing

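The 90 values (10 genes in 9 comparisons) were recomputed 1450 times under the alternatives, and 95 of these changed sign, of which 2 had a p under 0.05. Without mock 1, ARF5 in IAA against mock was -0.35, and with single libraries left out it ran from -0.35 to 0.25. Without BiAux 1 and mock 1, ARF10 with IAA was -0.12, and with single libraries left out it ran from -0.05 to 0.05 (-0.0462 without mock 1, 0.0483 without BiAux 2). A p under 0.05 was lost in 52 and gained in 48, of which 42 and 26 came from leaving out 1 library. Members past both limits (interaction: p under 0.05) numbered 0 in each comparison but 1 (ARF6) in BiAux+IAA against BiAux, where 1 fit of all 12 libraries gave 0. With single libraries left out, they ran from 0 to 1 in BiAux against mock and BiAux+IAA against mock, from 0 to 2 in IAA against mock, BiAux+IAA against BiAux, BiAux against IAA and the interaction, and stayed 0 elsewhere.

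The counts of members with p under 0.05 that moved by over 1.5 times, or to or from 0, were these. With the replicate block they were 3 lower (BiAux against mock, 0 without the block), 2 higher (BiAux+IAA against mock, 1 without), 6 higher (BiAux+IAA against BiAux, 3 without) and 1 lower (6 libraries with BiAux against 6 without, 0 without). With the block, 17.5%, 12.4%, 12.6% and 11.5% of tested genes had a p under 0.05 in either direction there, in that order. Numbers paired libraries only for BiAux against mock, where the block moved the tested genes with p under 0.05 to 3375, against 822 without it. With IAA, the block gave adjusted p of 0.0248 for ARF4, 0.0442 for ARF7 and 0.0462 for ARF1, where 5.06% of tested genes were under 0.05. Median-of-ratios scaling gave 2 higher (BiAux+IAA against mock) and 1 lower (BiAux+IAA against IAA), and adjusted p of 0.0379 for ARF4 and 0.0412 for ARF1 with IAA. One fit of all libraries gave 2 higher and 0 lower in those comparisons. Smaller moves were 5 lower in BiAux against IAA (6 otherwise) and 6 higher with IAA (5 otherwise) under both the block and median-of-ratios scaling, and 4 higher in IAA against mock (3 otherwise) under that scaling, and, in 1 fit of all libraries, 2 higher in BiAux+IAA against BiAux (3 otherwise) and 4 lower in BiAux against IAA. Without BiAux 1 and mock 1, chosen after seeing the data, they were 3 lower (BiAux against mock), 3 lower (with BiAux), 1 lower (with IAA) and 2 (interaction, positive). The shares of tested genes in the same direction were 12.1%, 11.4%, 14.8% and 9.06%, in that order.

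With single libraries left out, the members higher at p under 0.05 ran from 0 to 4 in IAA against mock and in BiAux+IAA against BiAux, from 0 to 2 in BiAux+IAA against mock, from 0 to 1 in BiAux+IAA against IAA and from 4 to 6 with IAA. Those lower ran from 0 to 1 in BiAux against mock and in BiAux+IAA against mock, from 0 to 2 in IAA against mock, from 0 to 4 in BiAux+IAA against IAA, from 2 to 7 in BiAux against IAA and from 0 to 3 with BiAux. Shares of all tested genes are not given for most of these fits, nor for median-of-ratios scaling or the single fit of all libraries. Those counts therefore describe the members only. The causes were not tested. The number of libraries limits the precision.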
